A study of Homo sapiens with 6 samples.

Results

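The 37 genes described here carry glucose into the cell, break it down to lactate, or respond to low oxygen. They are 24 genes of glucose transport, glycolysis and lactate handling, 11 other targets of the hypoxia-inducible factors (HIFs), and the 2 genes for HIF alpha subunits, HIF1A and EPAS1. They were chosen by name out of 58825 gene identifiers, as textbook members of these pathways and with earlier results of these data known. Of the 37, 36 had enough counts to be tested. The genes were measured by RNA sequencing in FaDu, an established line of squamous carcinoma of the hypopharynx. The shNSUN2 group held 3 libraries of FaDu cells carrying a short hairpin RNA against NSUN2, a methyltransferase that places 5-methylcytosine on tRNAs and some mRNAs. The FaDu group held 3 libraries of the same line labelled without a hairpin. A control with a non-targeting hairpin is not among the libraries analysed here, and loss of NSUN2, the hairpin and its delivery cannot be told apart. The series text calls the experiments repeated pairs and does not define a pair. No oxygen or glucose treatment is given for either group, and nothing in the labels says whether replicates came from separate cultures, so the p-values measure the spread between these samples only, which may be technical.

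Glycolysis converts glucose to pyruvate in a chain of cytosolic enzymes, most of which exist as several isozymes encoded by separate genes. Lactate dehydrogenase then turns pyruvate into lactate, which leaves the cell through monocarboxylate transporters, and many squamous carcinomas run this route even when oxygen is present. HIF1 and HIF2 are pairs of an alpha and a beta subunit. With oxygen, prolyl hydroxylases mark the alpha subunit for destruction; without it, the alpha subunit accumulates and binds the core sequence ACGTG or GCGTG at genes for glucose uptake, glycolysis, vessel growth, mitophagy and collagen modification. HIF alpha activity is mainly set at the protein level, which RNA sequencing does not measure.

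Levels are given as CPM (counts scaled to a common library size), that is, the deposited estimated counts scaled by edgeR to the library total adjusted by the trimmed mean of M values (TMM). Library totals ran from 58577723 to 72788971 in shNSUN2 and from 53612358 to 72043755 in FaDu. NSUN2 itself had 50.4, 34.7 and 39.6 CPM in shNSUN2, against 169, 173 and 156 CPM in FaDu. Replicate 3 of shNSUN2 had the strongest trend with GC content of any library. Across 14168 genes, its log2 deviation from the other shNSUN2 libraries correlated with the GC content of the transcripts at a Spearman rho of 0.547. The values were -0.459 for replicate 1 and -0.31 for replicate 2, and 0.207, -0.268 and 0.0576 for FaDu replicates 1, 2 and 3. Deviations within a group cancel out, so a trend in 1 library forces opposite trends in the others. Genes are not independent replicates, so these values are descriptions. The list for the labelled cell type held 10 epithelial markers. It mixes markers of stratified squamous epithelium, such as KRT5 and KRT14, with general or simple-epithelial ones, such as EPCAM, KRT8 and KRT18. All were detected, with summed levels of 4247 to 4785 CPM in shNSUN2 and 4589.8 to 4859 CPM in FaDu. The sum joins markers that moved in opposite directions, so it does not show that squamous markers were level. Of these markers, 3 were higher (KRT8 had 1314, 1193 and 1524 CPM in shNSUN2, against 315, 226 and 254 CPM in FaDu) and 5 were lower (KRT14 had 18.8, 30.2 and 23.8 CPM in shNSUN2, against 112, 101 and 113 CPM in FaDu). Prostate epithelial markers summed to 48.5 to 64.7 CPM in shNSUN2 and 30.5 to 33.2 CPM in FaDu, with 4 of 8 tested higher and 1 lower, KLK3 at 14.0, 16.8 and 10.2 CPM in shNSUN2 against 0, 0 and 0.160 CPM in FaDu, and 3 of the 9 markers found at 0 in all FaDu libraries. Endothelial markers summed to 31.8 to 54.7 CPM in shNSUN2 and 4.07 to 5.84 CPM in FaDu, mostly through CDH5, and plasma and B cell markers to 1.90 to 5.11 CPM in shNSUN2 and 0 to 0.267 CPM in FaDu, with 3 of 3 tested called higher. Replicate 1 was the highest shNSUN2 library for MYH11 (8.29, 1.53 and 1.39 CPM), DES (2.75, 0.455 and 0.459 CPM), MSMB (3.92, 0.488 and 0.281 CPM) and IGKC (2.87, 0.505 and 0.844 CPM). Smooth muscle markers summed to 29.3 to 42.5 CPM in shNSUN2 and 29.7 to 33.3 CPM in FaDu, mostly through SMTN, with 2 of 5 tested called higher, DES and ACTG2. Fibroblast markers summed to 6.24 to 11.4 CPM in shNSUN2 and 8.85 to 9.45 CPM in FaDu, mostly through COL1A1, with 1 of 4 tested called higher and none lower. COL1A2 had 0.562, 0.286 and 0.311 CPM in shNSUN2, against 0 in all FaDu libraries. T cell and myeloid markers summed to 39.0 to 46.6 CPM in shNSUN2 and 31.6 to 52.1 CPM in FaDu, with PTPRC and CD3D at 0 throughout. Erythrocyte and platelet markers reached 0.0673 CPM in shNSUN2 and 0.311 CPM in FaDu. The part of the other cell types' markers in the results below was not tested, and in bulk RNA fewer cells of a type and less RNA per cell cannot be told apart.

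The genes of transport, glycolysis and lactate, many of them HIF targets too, and the other HIF targets did not move as 1 block. Of the 24 genes of transport, glycolysis and lactate, 5 rose (TPI1, PGAM1, ENO1, PKM and LDHB) and 4 fell (SLC2A3, ENO2, PDK1 and SLC16A3) at a Benjamini-Hochberg adjusted p under 0.05 in edgeR's quasi-likelihood test over all 19081 genes tested. That is 20.8% higher and 16.7% lower, beside 8.54% of all genes tested called higher and 9.97% called lower. Of the 10 tested other HIF targets, 3 fell (NDRG1, BNIP3L and P4HA2), or 30.0%, and none was called higher by edgeR. In the higher direction, 1 of these 10 had an unadjusted p under 0.05, and DESeq2 called 0. Over all 36, DESeq2 called 6 members higher and 10 lower, where it called 12.3% of all genes higher and 13.0% lower. HIF1A fell and EPAS1 was not called.

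The median log2 fold change of shNSUN2 over FaDu was 0.17 for the 24 genes of transport, glycolysis and lactate, -0.31 for the 10 other HIF targets tested, and -0.01 for all genes tested. In the first group 13 fold changes were positive and 11 negative. Among the other HIF targets 9 of 10 were negative. The 3 shNSUN2 libraries lay wholly above the 3 FaDu libraries for 10 members and wholly below them for 13, where 20.3% of all genes tested lay wholly above and 22.1% wholly below. All 10 that lay above belong to transport, glycolysis and lactate.

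**Figure D1:**
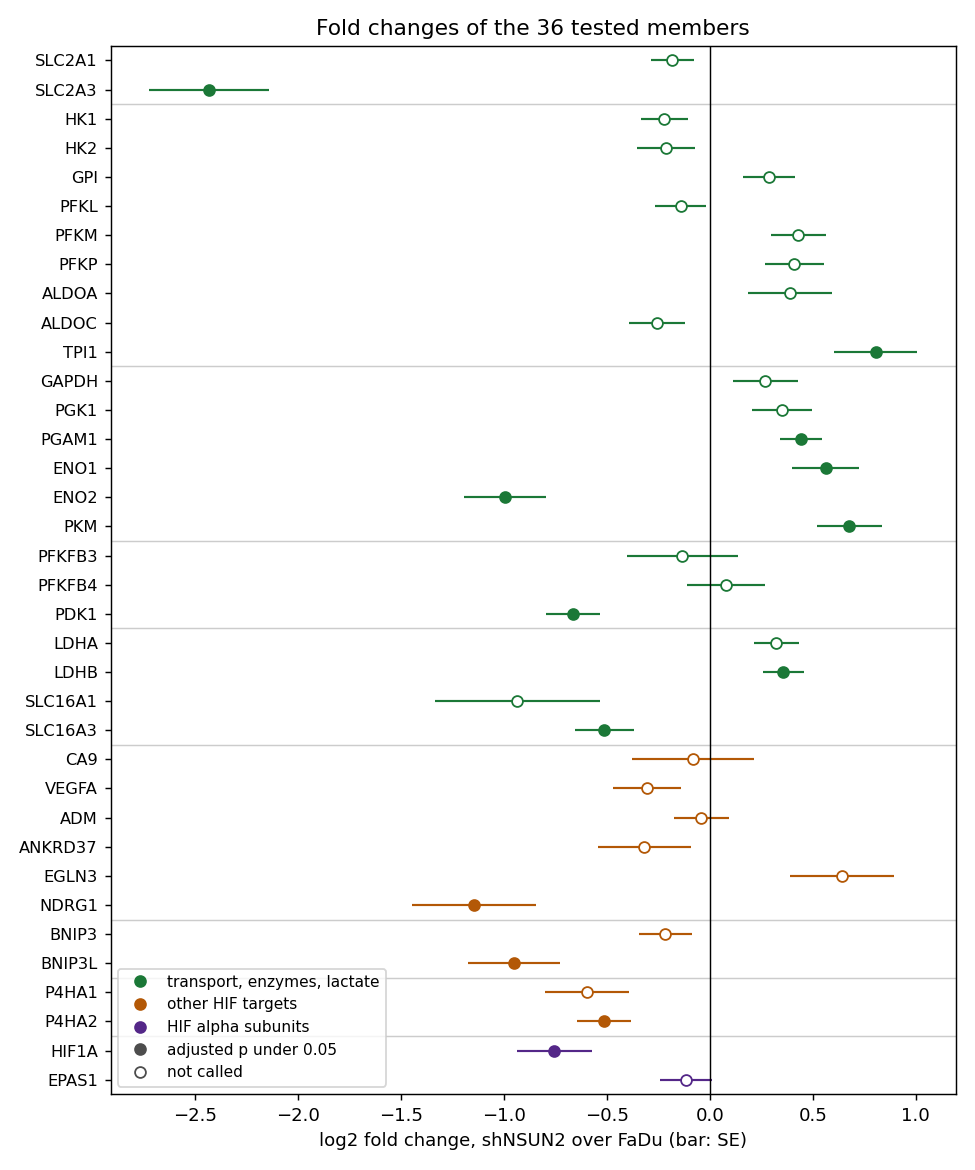
Log2 fold change of shNSUN2 over FaDu (horizontal axis) for the 36 members tested, grouped by role, with bars of 1 SE. Filled circles mark an adjusted p under 0.05 in edgeR's test: 5 lie right of 0, all of glycolysis or lactate, and 8 lie left of 0, from SLC2A3 at -2.43 to SLC16A3 at -0.51.

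How many of these calls were kept depended on which library was left out. With 1 library left out, 2 libraries remain in a group, and the calls over all genes moved too (478 to 2090 higher and 861 to 2181 lower). Without FaDu replicate 1, 2 or 3, the share of all genes called higher was 3.1%, 2.38% and 2.51%, and the share called lower 4.8%, 4.38% and 4.38%. Without shNSUN2 replicate 1, 2 or 3, the share higher was 4.46%, 8.31% and 10.5%, and the share lower 5.95%, 9.08% and 11.0%. The shares of all genes called were smaller than with all 6 libraries in 5 of these fits, and larger without shNSUN2 replicate 3. All 13 called members kept their sign in all 6 such fits, and 1 of the 13, SLC2A3, stayed called in all 6. Counts of called members that remained called were 3, 1 and 2 without FaDu replicate 1, 2 or 3, and 5, 8 and 12 without shNSUN2 replicate 1, 2 or 3. The adjusted p-values for each gene are given beside it below.

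The promoters of 3 genes are shown because they encode isozymes or neighbouring steps of lower glycolysis that moved in opposite directions: ENO1 and PKM rose and ENO2 fell. Each run holds 250 bases before the start site and 20 from it on, 5′ to 3′ on the gene's own strand, from RefSeq on GRCh38.p14. ENO1 is chr1:8878667-8878936 on the minus strand, ENO2 chr12:6914330-6914599 on the plus strand and PKM chr15:72231171-72231440 on the minus strand. Capitals mark the HIF core motifs ACGTG and GCGTG, or their reverse complements CACGT and CACGC.
ENO1: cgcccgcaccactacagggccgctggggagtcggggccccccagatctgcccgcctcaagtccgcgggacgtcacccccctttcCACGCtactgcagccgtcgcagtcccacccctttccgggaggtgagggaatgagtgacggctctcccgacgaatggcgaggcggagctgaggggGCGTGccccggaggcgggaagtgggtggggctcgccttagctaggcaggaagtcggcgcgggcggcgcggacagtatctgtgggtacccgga
ENO2: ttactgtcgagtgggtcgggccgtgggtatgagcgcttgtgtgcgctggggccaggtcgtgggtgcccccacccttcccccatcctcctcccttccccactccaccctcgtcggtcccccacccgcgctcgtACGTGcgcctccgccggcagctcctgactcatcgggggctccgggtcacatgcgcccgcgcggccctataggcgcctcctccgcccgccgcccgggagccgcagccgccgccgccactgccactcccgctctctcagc
PKM: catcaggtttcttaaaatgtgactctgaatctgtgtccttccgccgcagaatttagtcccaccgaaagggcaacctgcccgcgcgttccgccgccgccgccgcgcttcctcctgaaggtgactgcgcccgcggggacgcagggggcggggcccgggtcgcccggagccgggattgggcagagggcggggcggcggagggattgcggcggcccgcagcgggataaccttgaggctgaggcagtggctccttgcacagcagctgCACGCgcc
ENO1 holds GCGTG in 2 places, starting 166 and 72 bases before the start site, ENO2 holds ACGTG once, 118 bases before it, and PKM holds GCGTG once, 12 bases after it. A match is a description of letters, not a binding site.

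Over all members, RefSeq gave 59 promoters of 300 bases (250 before and 50 after the start) for 32 of the 37 genes. ACGTG, on either strand, stood in 22 of these 59 (37.3%), against 7518 of 35116 promoters of the same length (21.4%). GCGTG stood in 40.7% of the members' promoters and in 36.5% of all promoters. By gene, ACGTG stood in 56.2% of these members and in 24.9% of all genes with promoters, and GCGTG in 62.5% and 40.6%. A gene with several promoters has more chances of a match. Many members are known HIF targets, so these shares are not independent of the choice of genes. Part of the ACGTG matches fall in the E-box CACGTG, which stood in 13.6% of the members' promoters and in 7.26% of all. ACGTG stood in 1 of 6 promoters of the members that rose, in 3 of 11 of those that fell and in 18 of 41 of those not called. GCGTG stood in 4 of 6 promoters of the members that rose, in 3 of 11 of those that fell and in 16 of 41 of those not called. SLC2A3, NDRG1 and BNIP3L, which fell, had no promoter in this set, and SLC16A3 alone gave 5 of the 11. Counted by gene, ACGTG stood in 1 of 5 that rose, 3 of 5 that fell and 14 of 21 not called. For GCGTG these counts were 4 of 5, 2 of 5 and 13 of 21. These splits rest on few genes and were not tested.

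The largest fold change among the members was that of a glucose transporter. SLC2A3, which encodes the high-affinity transporter GLUT3, had 3.64, 5.89 and 2.86 CPM in shNSUN2, against 21.7, 26.9 and 18.3 CPM in FaDu. Every shNSUN2 library lay below every FaDu library, and the mean fell to 4.13 ± 1.58 CPM in shNSUN2, against 22.3 ± 4.34 CPM in FaDu (SD, n = 3 each), which is 18.5% as much. In edgeR's test SLC2A3 fell with a log2 fold change of -2.43, an SE of 0.291 and an adjusted p of 0.00204. It ran from -2.78 to -2.22 with 1 library left out (edgeR adjusted p from 0.00249 to 0.0158). SLC2A3 lies on chromosome 12 from 7919230 to 7936275, minus strand (GRCh38, GENCODE 29), beside a close copy, SLC2A14, whose level was at most 0.269 CPM in shNSUN2 and at most 0.147 CPM in FaDu. Its 3 pseudogenes by name summed to 11.2% of its level in shNSUN2 and 2.2% in FaDu. SLC2A1, which encodes GLUT1, the transporter found in most cells, had 658, 736 and 755 CPM in shNSUN2, against 816, 782 and 841 CPM in FaDu. Its groups did not overlap either, but the log2 fold change of -0.18 was not called (SE 0.103, edgeR adjusted p = 0.259). Per kilobase of exon, SLC2A3 made up 0.422%, 0.610% and 0.289% of the 2 transporters' summed level in shNSUN2, against 2.00%, 2.57% and 1.64% in FaDu.

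Of 9 genes from hexokinase to triose phosphate isomerase, 1 rose, TPI1, which is 11.1% beside 8.54% of all genes tested, and none was called lower by edgeR, with 0 at an unadjusted p under 0.05 in that direction and 0 by DESeq2. HK1 and HK2, the hexokinases that trap glucose as its phosphate, had log2 fold changes of -0.22 and -0.21 (edgeR adjusted p = 0.213 and 0.327). HK1 had 139.8, 144 and 167 CPM in shNSUN2, against 174, 176 and 176 CPM in FaDu, without overlap, and it was called without shNSUN2 replicate 3 (log2 fold change -0.30, edgeR adjusted p = 0.0247). The isomerase GPI and the aldolases ALDOA and ALDOC had log2 fold changes of 0.29, 0.39 and -0.26, none of them called (edgeR adjusted p = 0.158, 0.222 and 0.231).

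None of the 3 phosphofructokinase genes, for the step that commits sugar to glycolysis, was called. PFKM had 158, 151 and 195 CPM in shNSUN2, against 132, 126 and 116 CPM in FaDu. PFKP had 298, 282 and 396 CPM in shNSUN2, against 251, 243 and 241 CPM in FaDu. For both genes all shNSUN2 libraries lay above all FaDu libraries, with replicate 3 the highest (log2 fold changes 0.43 and 0.41, edgeR adjusted p = 0.0582 and 0.0862). Without shNSUN2 replicate 3 both were called at smaller fold changes, 0.31 for PFKM (edgeR adjusted p = 0.0396) and 0.25 for PFKP (edgeR adjusted p = 0.0466). PFKL, the liver-type subunit, had a log2 fold change of -0.14 with overlapping groups (edgeR adjusted p = 0.469). SENP1, which overlaps PFKM on the other strand, had 38.2 to 61.1 CPM in shNSUN2 and 33.3 to 49.3 CPM in FaDu, and reads shared between the 2 cannot be told apart.

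TPI1, which interconverts the 2 triose phosphates, had 1374, 1271 and 2156 CPM in shNSUN2, against 839.7, 995 and 914 CPM in FaDu. All shNSUN2 libraries were higher than all FaDu libraries, and replicate 3 stood well above the other shNSUN2 libraries. Its level rose to 1600.3 ± 484 CPM in shNSUN2, against 916 ± 77.5 CPM in FaDu (SD, n = 3 each), a log2 fold change of 0.80 (SE 0.202, edgeR adjusted p = 0.0298). Without shNSUN2 replicate 3 the log2 fold change was 0.53 (edgeR adjusted p = 0.00994). The call was lost without FaDu replicate 1, 2 or 3 (edgeR adjusted p = 0.102, 0.0794 and 0.104) and without shNSUN2 replicate 1 (0.0512). TPI1 lies on chromosome 12 from 6867119 to 6870948, plus strand, and overlaps SPSB2 on the other strand, which had 8.97 to 13.2 CPM in shNSUN2 and 12.5 to 14.7 CPM in FaDu.

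**Figure D2:**
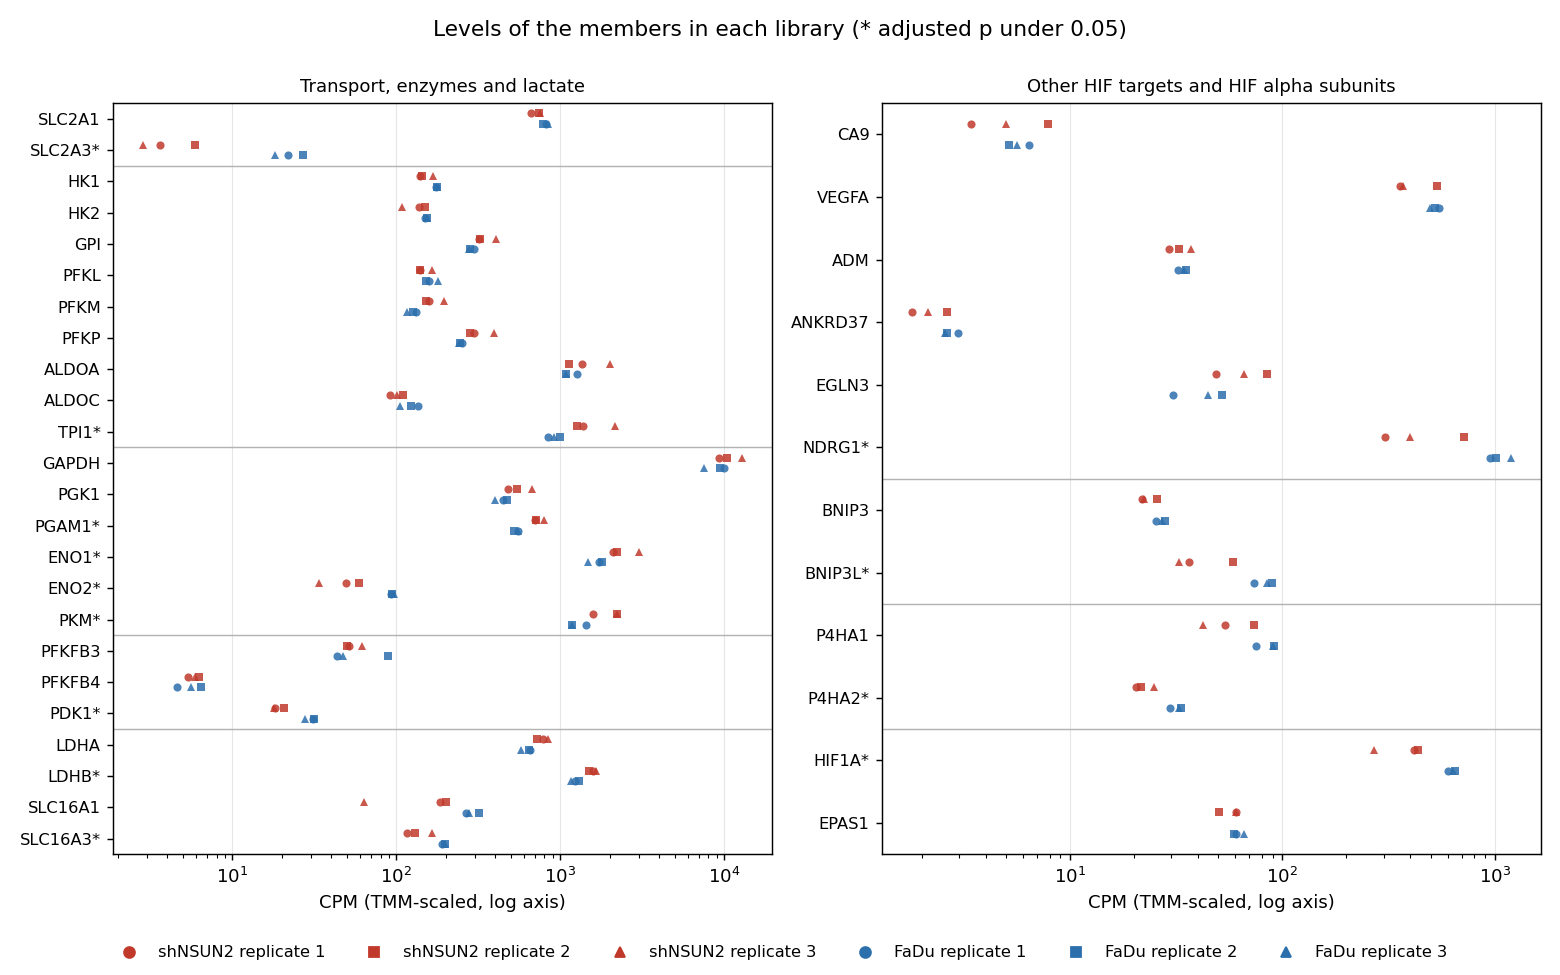
CPM of each of the 36 tested members in every library on a log axis, with shNSUN2 in red above FaDu in blue for each gene and symbols for replicates 1 to 3. TPI1, PGAM1, ENO1 and PKM in shNSUN2 lie right of FaDu without overlap, ENO2 lies left of it, and SLC16A1 in shNSUN2 replicate 3 lies apart at 63.3 CPM.

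Lower glycolysis, from glyceraldehyde phosphate to pyruvate, held 3 of the 5 members that rose. PGAM1, a phosphoglycerate mutase, had 697, 712 and 795 CPM in shNSUN2, against 548, 520.1 and 553 CPM in FaDu. The spread within each group was narrow and the groups were far apart, at 735 ± 53.0 CPM in shNSUN2 and 540.3 ± 17.7 CPM in FaDu (SD, n = 3 each). PGAM1 rose by a log2 fold change of 0.44 (SE 0.103, edgeR adjusted p = 0.0227), and the call was lost without FaDu replicate 1, 2 or 3 (edgeR adjusted p = 0.0884, 0.113 and 0.0918). PGAM1 lies on chromosome 10 from 97426160 to 97433441, plus strand. It has 13 pseudogenes by name, whose summed level was 0.177% of its own in shNSUN2 and 0.229% in FaDu.

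ENO1, the enolase of most tissues, and ENO2, the neuronal enolase, catalyse the same step and moved apart. ENO1 had 2108, 2205 and 3038 CPM in shNSUN2, against 1718, 1790.1 and 1468 CPM in FaDu. ENO2 had 49.0, 59.6 and 33.9 CPM in shNSUN2, against 92.4, 94.3 and 97.4 CPM in FaDu. In both genes the groups did not overlap, and replicate 3 was the extreme shNSUN2 library, highest for ENO1 and lowest for ENO2. ENO1 rose to 2450.3 ± 511 CPM in shNSUN2, against 1658 ± 169 CPM in FaDu (log2 fold change 0.56, SE 0.162, edgeR adjusted p = 0.0468). ENO2 fell to 47.5 ± 12.9 CPM in shNSUN2, against 94.7 ± 2.52 CPM in FaDu (log2 fold change -0.996, SE 0.198, edgeR adjusted p = 0.0138). For ENO1 the call held only without shNSUN2 replicate 3 (log2 fold change 0.38, edgeR adjusted p = 0.0364). It was lost without FaDu replicate 1, 2 or 3 (edgeR adjusted p = 0.114, 0.106 and 0.17) and without shNSUN2 replicate 1 or 2 (0.0561 and 0.0589). The ENO2 call was lost without FaDu replicate 2 or 3 (edgeR adjusted p = 0.0533 and 0.0561). ENO1 lies on chromosome 1 from 8861000 to 8879250, minus strand, where an antisense transcript overlaps it, and ENO2 on chromosome 12 from 6913745 to 6923698, plus strand.

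PKM, the pyruvate kinase of the last step, had 1593, 2229.9 and 2214 CPM in shNSUN2, against 1428, 1171 and 1179 CPM in FaDu. Replicate 1 of each group lay nearest to the other group, and the groups did not overlap. PKM rose to 2012 ± 363 CPM in shNSUN2, against 1259 ± 146 CPM in FaDu (log2 fold change 0.68, SE 0.158, edgeR adjusted p = 0.0237). For PKM the call was lost without FaDu replicate 2 or 3 (edgeR adjusted p = 0.0994 and 0.101) and without shNSUN2 replicate 2 (0.0634). PKM lies on chromosome 15 from 72199029 to 72231822, minus strand, and a gene-level count does not separate its M1 and M2 isoforms. GAPDH, by far the most abundant member per kilobase of exon at 3626 ± 602 CPM per kilobase in shNSUN2 and 3007.5 ± 437 in FaDu (SD, n = 3 each), was not called (log2 fold change 0.27, SE 0.158, edgeR adjusted p = 0.275). Its CPM of 9270.3, 10382 and 12779 in shNSUN2 overlapped those of 9950.0, 9456 and 7490.1 in FaDu. PGK1, a phosphoglycerate kinase, had a log2 fold change of 0.35 and was not called (edgeR adjusted p = 0.132).

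Summed over the 24 genes of transport, glycolysis and lactate, the level was 21615, 23210 and 28785 CPM in shNSUN2, against 20842, 20230 and 17600 CPM in FaDu. GAPDH alone made up a large part of this sum. Without it the sum was 12345, 12828 and 16006 CPM in shNSUN2, against 10892, 10775 and 10110 CPM in FaDu. The other HIF targets summed to 879, 1564 and 998 CPM in shNSUN2, against 1771, 1871 and 2004 CPM in FaDu. With and without GAPDH the first sum was higher in every shNSUN2 library than in any FaDu library, and the sum of the other HIF targets was lower in every shNSUN2 library. These sums follow their most abundant genes and were not tested.

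Of 3 regulators of flux, 1 fell, or 33.3% beside 9.97% of all genes tested. PDK1, a kinase that inhibits pyruvate dehydrogenase, had 18.3, 20.7 and 17.97 CPM in shNSUN2, against 31.0, 31.5 and 27.7 CPM in FaDu. The groups were tight and well apart, at 19.0 ± 1.47 CPM in shNSUN2 and 30.1 ± 2.07 CPM in FaDu (SD, n = 3 each). PDK1 fell by a log2 fold change of -0.66 (SE 0.13, edgeR adjusted p = 0.0131), and the call was lost without FaDu replicate 1 or 2 (edgeR adjusted p = 0.062 and 0.0665). It was also lost when GC content and length were corrected for in every library (log2 fold change -0.49, edgeR adjusted p = 0.0727). PDK1 lies on chromosome 2 from 172555373 to 172608669, plus strand. PFKFB3 and PFKFB4, which make the activator of phosphofructokinase, had log2 fold changes of -0.13 and 0.08 and were not called (edgeR adjusted p = 0.767 and 0.807). PFKFB3 had 51.3, 50.2 and 62.0 CPM in shNSUN2, against 43.7, 88.9 and 47.0 CPM in FaDu, so its negative sign came from FaDu replicate 2, without which the log2 fold change was 0.26.

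At the lactate step, the dehydrogenase genes and the exporters had fold changes of opposite sign. LDHB, the heart-type subunit, had 1589, 1498 and 1642 CPM in shNSUN2, against 1227, 1296 and 1168 CPM in FaDu. LDHA, the muscle-type subunit and a HIF target, had 782, 721 and 843 CPM in shNSUN2, against 657, 642 and 576 CPM in FaDu. For both subunits every shNSUN2 library lay above every FaDu library, by a similar proportion. LDHB rose to 1576 ± 72.5 CPM in shNSUN2, against 1230.4 ± 63.9 CPM in FaDu (log2 fold change 0.36, SE 0.0991, edgeR adjusted p = 0.0417). LDHA had a log2 fold change of 0.32 and was not called (SE 0.11, edgeR adjusted p = 0.0793). The LDHB call held only without shNSUN2 replicate 3 (edgeR adjusted p = 0.026). It was lost without FaDu replicate 1, 2 or 3 (edgeR adjusted p = 0.146, 0.115 and 0.17), without shNSUN2 replicate 1 or 2 (0.0909 and 0.0537), with no filter on low counts (0.0893) and under the GC and length correction (0.0505). LDHB lies on chromosome 12 from 21635342 to 21757857, minus strand, and shares exonic sequence with another gene on that strand.

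SLC16A3 encodes MCT4, the lactate exporter that HIF1 induces. It had 116, 129 and 165 CPM in shNSUN2, against 190.5, 197 and 199 CPM in FaDu. It fell to 137 ± 25.2 CPM in shNSUN2, against 195 ± 4.36 CPM in FaDu (log2 fold change -0.51, SE 0.145, edgeR adjusted p = 0.0448), with shNSUN2 replicate 3 the nearest to FaDu. Without replicate 3 of shNSUN2 the log2 fold change was -0.67 (edgeR adjusted p = 0.00329). Without FaDu replicate 1, 2 or 3 the call was lost (edgeR adjusted p = 0.117, 0.138 and 0.147), as it was without shNSUN2 replicate 1 or 2 (0.121 and 0.108). SLC16A3 lies on chromosome 17 from 82228397 to 82261129, plus strand, and overlaps CSNK1D on the other strand, which had 213 to 283 CPM in shNSUN2 and 190.3 to 225 CPM in FaDu. Reads shared by SLC16A3 and CSNK1D cannot be told apart.

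SLC16A1, which encodes MCT1, differed most between shNSUN2 libraries among the tested members. It had 186, 201 and 63.3 CPM in shNSUN2, against 265, 320.3 and 276 CPM in FaDu. All 3 shNSUN2 libraries lay below FaDu, but replicate 3 lay far below the other two. The log2 fold change of -0.94 was not called (SE 0.401, edgeR adjusted p = 0.155). Without shNSUN2 replicate 3 it was -0.57 and called (edgeR adjusted p = 0.0116), and DESeq2 called it over all 6 libraries (adjusted p = 0.04).

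The other HIF targets were mostly level or lower in shNSUN2. NDRG1, a stress-response gene strongly induced by low oxygen, had 306, 720.3 and 398 CPM in shNSUN2, against 949, 1013 and 1189 CPM in FaDu. Replicate 2 of shNSUN2 lay between the other shNSUN2 libraries and FaDu, and the groups did not overlap. NDRG1 fell to 475 ± 218 CPM in shNSUN2, against 1050.2 ± 124 CPM in FaDu (log2 fold change -1.15, SE 0.30, edgeR adjusted p = 0.0379). Without shNSUN2 replicate 2 the log2 fold change was -1.58 (edgeR adjusted p = 0.00421), and this was the only library whose removal kept the call. The edgeR adjusted p was 0.0815, 0.0911 and 0.115 without FaDu replicate 1, 2 or 3, and 0.0722 and 0.166 without shNSUN2 replicate 1 or 3. With no filter on low counts it was 0.0888. NDRG1 lies on chromosome 8.

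VEGFA, the vessel growth factor, had 358, 537 and 368 CPM in shNSUN2, against 546, 522 and 494 CPM in FaDu. Replicate 2 was the highest shNSUN2 library here as well, and for VEGFA it lay within the FaDu range. The log2 fold change of -0.31 was not called (SE 0.167, edgeR adjusted p = 0.242). Without shNSUN2 replicate 2 it was -0.52 and called (edgeR adjusted p = 0.0264). CA9, a carbonic anhydrase often used as a marker of tumour hypoxia, was low, at 3.40, 7.83 and 4.99 CPM in shNSUN2, against 6.38, 5.14 and 5.64 CPM in FaDu. Its groups overlapped and its log2 fold change of -0.08 was not called (edgeR adjusted p = 0.876). CA12, another carbonic anhydrase, was not tested, with at most 0.202 CPM in shNSUN2 and at most 0.128 CPM in FaDu. The peptide hormone gene ADM and ANKRD37 were not called, with log2 fold changes of -0.04 and -0.32 (edgeR adjusted p = 0.857 and 0.371).

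EGLN3, which encodes the oxygen sensor PHD3 and is itself induced by HIF, was the only tested gene among the other HIF targets with a positive fold change. It had 48.6, 84.7 and 65.7 CPM in shNSUN2, against 30.6, 52.1 and 44.9 CPM in FaDu. The groups overlapped, and the log2 fold change of 0.64 was not called (SE 0.251, edgeR adjusted p = 0.115).

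Of the mitophagy receptors BNIP3 and BNIP3L, which tie damaged mitochondria to the autophagy machinery, BNIP3L fell. It had 36.3, 58.7 and 32.7 CPM in shNSUN2, against 73.8, 89.0 and 84.2 CPM in FaDu, without overlap. The mean was 42.6 ± 14.1 CPM in shNSUN2 and 82.3 ± 7.78 CPM in FaDu (log2 fold change -0.95, SE 0.224, edgeR adjusted p = 0.024). For BNIP3L the call was lost without FaDu replicate 1, 2 or 3 (edgeR adjusted p = 0.0552, 0.0882 and 0.0849) and without shNSUN2 replicate 1 (0.0835). BNIP3 differed less and was not called, at 21.8, 25.5 and 22.2 CPM in shNSUN2, against 25.5, 28.0 and 27.2 CPM in FaDu (log2 fold change -0.22, edgeR adjusted p = 0.283). BNIP3L lies on chromosome 8. BNIP3 has 44 pseudogenes by name, whose summed level was 3.68% of its own in shNSUN2 and 2.96% in FaDu, and reads shared with them cannot be told apart.

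P4HA1 and P4HA2, catalytic subunits of the prolyl 4-hydroxylases that stabilise collagen, were both lower in every shNSUN2 library than in any FaDu library. P4HA2 had 20.5, 21.5 and 24.8 CPM in shNSUN2, against 29.5, 33.2 and 32.5 CPM in FaDu. P4HA1 had 53.9, 73.2 and 42.1 CPM in shNSUN2, against 75.2, 91.0 and 90.1 CPM in FaDu. P4HA2 was the tighter and was called, and it fell to 22.2 ± 2.25 CPM in shNSUN2, against 31.7 ± 1.96 CPM in FaDu (log2 fold change -0.51, SE 0.132, edgeR adjusted p = 0.0328). P4HA1 had a log2 fold change of -0.60 and was not called (SE 0.204, edgeR adjusted p = 0.0792), but it was called without shNSUN2 replicate 2 (log2 fold change -0.83, edgeR adjusted p = 0.0218) and with the GC and length correction (adjusted p = 0.0196). The P4HA2 call held only without shNSUN2 replicate 3 (edgeR adjusted p = 0.0108). The adjusted p in edgeR was 0.0819, 0.132 and 0.122 without FaDu replicate 1, 2 or 3, and 0.0971 and 0.0738 without shNSUN2 replicate 1 or 2. P4HA2 lies on chromosome 5 from 132191838 to 132295315, minus strand, and is overlapped by an antisense gene.

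The gene for the HIF1 alpha subunit was itself lower. HIF1A had 416, 436 and 269 CPM in shNSUN2, against 603, 652 and 639 CPM in FaDu. The highest shNSUN2 library lay well below the lowest FaDu library, and replicate 3 was the lowest of all. HIF1A fell to 374 ± 91.3 CPM in shNSUN2, against 631 ± 25.5 CPM in FaDu, or 59.2% of the FaDu level (log2 fold change -0.76, SE 0.181, edgeR adjusted p = 0.0254). Without shNSUN2 replicate 3 the log2 fold change was -0.56 (edgeR adjusted p = 0.00422). The call was lost without FaDu replicate 1, 2 or 3 (edgeR adjusted p = 0.0684, 0.091 and 0.0878) and without shNSUN2 replicate 1 (0.0534). EPAS1, for the HIF2 alpha subunit, had 60.7, 50.05 and 60.4 CPM in shNSUN2, against 60.3, 58.9 and 66.2 CPM in FaDu (log2 fold change -0.12, edgeR adjusted p = 0.575). HIF1A lies on chromosome 14 from 61695513 to 61748259, plus strand, with an antisense gene overlapping it.

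The log2 ratio of CPM within pairs of related genes, with 0.5 CPM added to each gene, did not overlap between the groups in 6 of 12 pairs. The levels of 42.3% of single genes tested did not overlap, but no such share was computed for ratios of other gene pairs. Both sides of a ratio come from the same library, so the library total nearly cancels out, less closely for genes of a few CPM. Unequal GC content between the genes does not cancel out. The ratio of ENO2 to ENO1 was -5.69 ± 0.679 in shNSUN2 and -4.12 ± 0.184 in FaDu (SD, n = 3 each), a difference of -1.57. ENO2 accordingly made up 2.79%, 3.22% and 1.36% of the enolase pair per kilobase of exon in shNSUN2, against 6.22%, 6.09% and 7.56% in FaDu. SLC2A3 to SLC2A1 differed by -2.15, BNIP3L to BNIP3 by -0.77 and HIF1A to EPAS1 by -0.67 on this scale. The ratios of the phosphofructokinases were higher in shNSUN2, where PFKM to PFKL stood at 0.18 ± 0.0659, against -0.39 ± 0.211 in FaDu, and PFKP to PFKL at 1.12 ± 0.13 in shNSUN2 and 0.59 ± 0.143 in FaDu. LDHA to LDHB was -1.01 ± 0.0477 in shNSUN2 and -0.98 ± 0.0669 in FaDu, with overlapping groups, so the subunit genes of lactate dehydrogenase kept a near-constant proportion while both lay higher. These ratios were not tested.

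**Figure D3:**
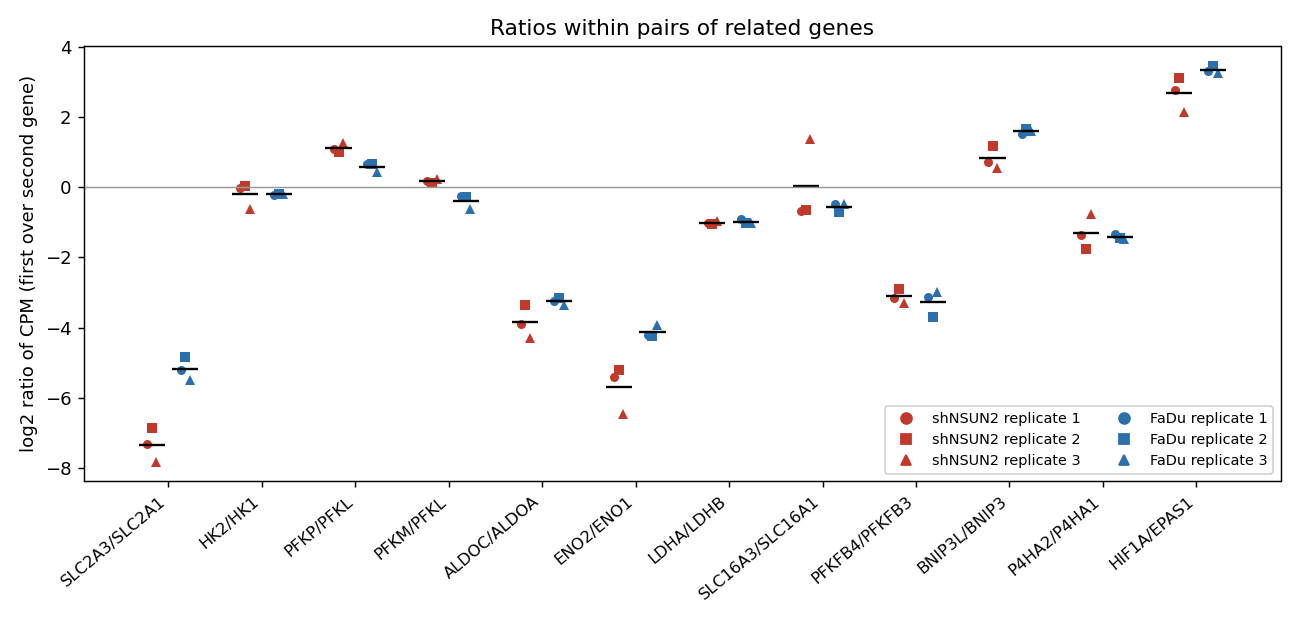
Log2 ratio of CPM within 12 pairs of related genes (vertical axis) in each library, shNSUN2 in red left of FaDu in blue, with group means as black lines. ENO2/ENO1 lies lower in all shNSUN2 libraries (mean -5.69 against -4.12), LDHA/LDHB overlaps, and SLC16A3/SLC16A1 is at 1.38 in shNSUN2 replicate 3 and below 0 in the 5 other libraries.

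Replicate 3 of shNSUN2 bears on many of these values, and its GC trend runs through the members as well. Across the 36 tested members its log2 deviation from the other shNSUN2 libraries had a Spearman rho of 0.508 with GC content, against -0.37 for replicate 1 and -0.349 for replicate 2. In the FaDu libraries rho was 0.245, -0.469 and 0.0215. Here too the values within a group depend on one another. The members differ in GC content by group: the median was 55.8% for transport, glycolysis and lactate, 50.86% for the other HIF targets, 46.2% for the HIF alpha subunits and 49.25% for all genes tested. Replicate 3 was the highest shNSUN2 library for 16 of the 24 genes of transport, glycolysis and lactate and for 4 of the 5 members that rose. It was the lowest for 5 of the 8 members that fell. Without it, 12 of the 13 calls were kept, all but NDRG1, with all 13 signs the same and with smaller fold changes for some, such as TPI1 (0.53, against 0.80 with all 6 libraries). With GC content and length corrected for in every library, 11 of the 13 stayed called, all but PDK1 and LDHB, while the correction called 11.5% of all genes higher and 12.8% lower.

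**Figure D4:**
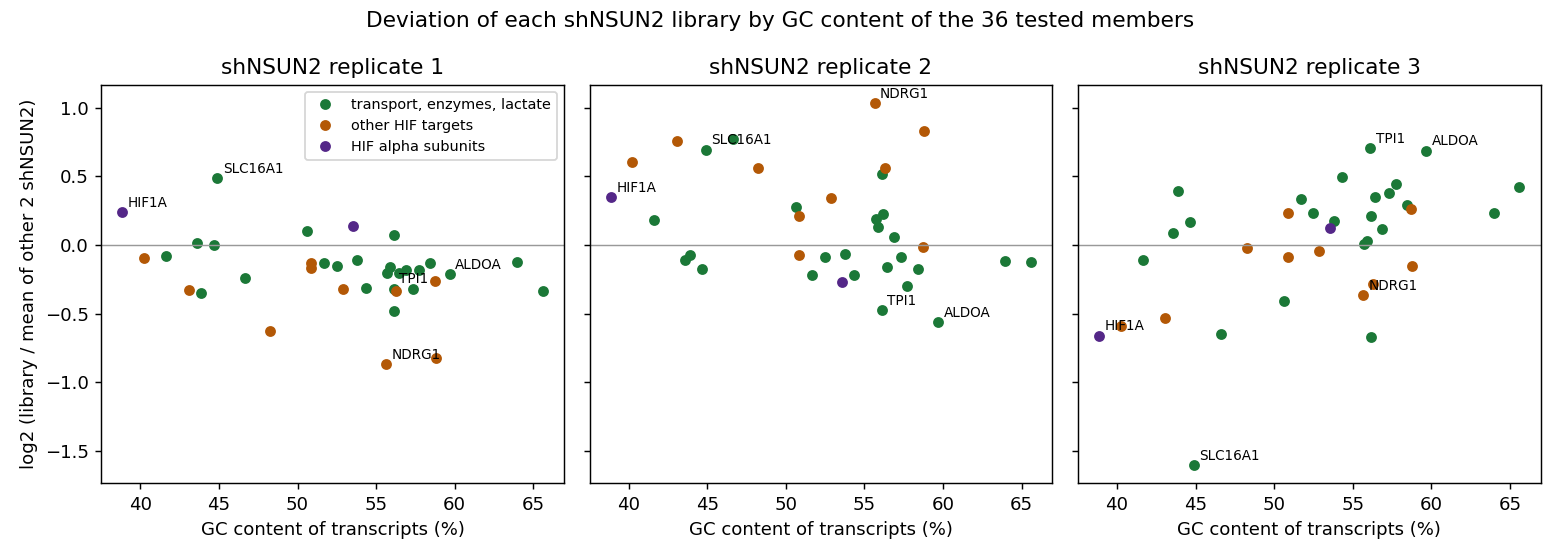
Log2 deviation of each shNSUN2 library from the mean of the other shNSUN2 libraries (vertical axis) against the GC content of the transcripts in percent (horizontal axis) for the 36 tested members, coloured by group. Points slope upward in replicate 3 (rho 0.508), where SLC16A1 lies lowest, and downward in replicates 1 and 2 (rho -0.37 and -0.349), where NDRG1 lies lowest in replicate 1 and highest in replicate 2.

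Replicate 2 of shNSUN2 set another pattern, among the other HIF targets. It was the highest shNSUN2 library for 8 of the 10 other HIF targets tested, and replicate 1 was the lowest for 8 of the 10. Replicate 2 was the highest for NDRG1, VEGFA, EGLN3, BNIP3L, P4HA1, CA9, BNIP3 and ANKRD37. In each, the CPM of replicate 2 exceeded those of both other shNSUN2 libraries by more than they differed from each other. On a log2 scale this did not hold for EGLN3. The labels name no condition that differs between these libraries.

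Beyond the members, other genes of the same pathways were counted from lists of textbook genes. These lists too were chosen with earlier results of these data known, so their shares are descriptions and were not tested. Of 40 further hypoxia-induced genes, 17 fell and 1 rose, with a median log2 fold change of -0.47, beside 9.97% of all genes tested called lower and a median of -0.01. In 23 of them every shNSUN2 library lay below every FaDu library, beside 22.1% of all genes tested. The count that fell was 11, 12 and 9 without FaDu replicate 1, 2 or 3, and 12, 16 and 17 without shNSUN2 replicate 1, 2 or 3. LOX, a lysyl oxidase that crosslinks collagen, had 0.813, 0.859 and 1.10 CPM in shNSUN2, against 5.17, 6.79 and 8.63 CPM in FaDu (log2 fold change -2.89, edgeR adjusted p = 0.000787). PYGL, a glycogen phosphorylase, fell to 162 ± 3.99 CPM in shNSUN2, against 307 ± 5.38 CPM in FaDu (log2 fold change -0.92, edgeR adjusted p = 0.00126). KDELR3, a receptor that returns proteins to the endoplasmic reticulum, fell as well (log2 fold change -1.09, edgeR adjusted p = 0.00208). The gene that rose, IGFBP3, which encodes a binding protein of insulin-like growth factors, had 673, 978 and 829.8 CPM in shNSUN2, against 139, 154 and 171 CPM in FaDu (log2 fold change 2.42, edgeR adjusted p = 0.000335).

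Of 19 tested regulators of the HIF pathway, 5 rose, or 26.3% beside 8.54% of all genes tested, and none was called lower by edgeR (2 at an unadjusted p under 0.05, and 0 by DESeq2), with a median log2 fold change of 0.21. EGLN2, which encodes the prolyl hydroxylase PHD1, had 40.4, 39.0 and 57.1 CPM in shNSUN2, against 14.6, 26.9 and 18.7 CPM in FaDu (log2 fold change 1.18, edgeR adjusted p = 0.0169). CITED2, which competes with HIF alpha for the coactivator p300, and EP300, which encodes p300, also rose (log2 fold changes 0.71 and 0.47, edgeR adjusted p = 0.0237 and 0.0284). The count that rose was 0, 1 and 0 without FaDu replicate 1, 2 or 3, and 2, 2 and 5 without shNSUN2 replicate 1, 2 or 3.

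The routes that branch off glycolysis had positive medians. Of 9 pentose phosphate genes, 2 rose, which is 22.2% beside 8.54% of all genes tested. They were PRPS1 and TKT (log2 fold changes 0.60 and 0.57, edgeR adjusted p = 0.0213 and 0.0403), and none was called lower by edgeR (1 at an unadjusted p under 0.05, and 0 by DESeq2). The count that rose was 0 without any 1 FaDu library and 1, 1 and 2 without shNSUN2 replicate 1, 2 or 3. Of 26 genes of pyruvate entry and the tricarboxylic acid cycle, 5 rose, or 19.2% beside the same 8.54%, and none was called lower by edgeR (2 at an unadjusted p under 0.05, and 2 by DESeq2), with a median of 0.20. FH, fumarate hydratase, had 101, 101 and 114 CPM in shNSUN2, against 76.0, 76.3 and 69.5 CPM in FaDu (log2 fold change 0.51, edgeR adjusted p = 0.0203). IDH3G and DLAT, subunits of isocitrate dehydrogenase and of the pyruvate dehydrogenase complex, rose too (log2 fold changes 0.88 and 0.48, edgeR adjusted p = 0.0213 and 0.0249). The count that rose in this list was 0, 1 and 0 without FaDu replicate 1, 2 or 3, and 2, 5 and 4 without shNSUN2 replicate 1, 2 or 3.

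Of 34 other isoforms of glycolysis and transport, many with little expression in these cells, 21 were tested, 4 fell and 1 rose, or 19.0% lower and 4.76% higher beside 9.97% and 8.54% of all genes tested. HKDC1, a hexokinase domain protein, had 0.222, 0.337 and 0.252 CPM in shNSUN2, against 3.02, 2.51 and 4.42 CPM in FaDu (log2 fold change -3.62, edgeR adjusted p = 0.000838). ENO3, the muscle enolase, fell to 6.15 ± 0.431 CPM in shNSUN2, against 10.5 ± 0.697 CPM in FaDu (log2 fold change -0.77, edgeR adjusted p = 0.0133), the direction of ENO2. FBP1, a gluconeogenic phosphatase, was called higher at very low levels of 0.281, 0.438 and 0.474 CPM in shNSUN2, against 0.0654, 0 and 0 CPM in FaDu (edgeR adjusted p = 0.0411), a range where the deposited values move in steps and a fold change depends on the prior count.

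**Figure D5:**
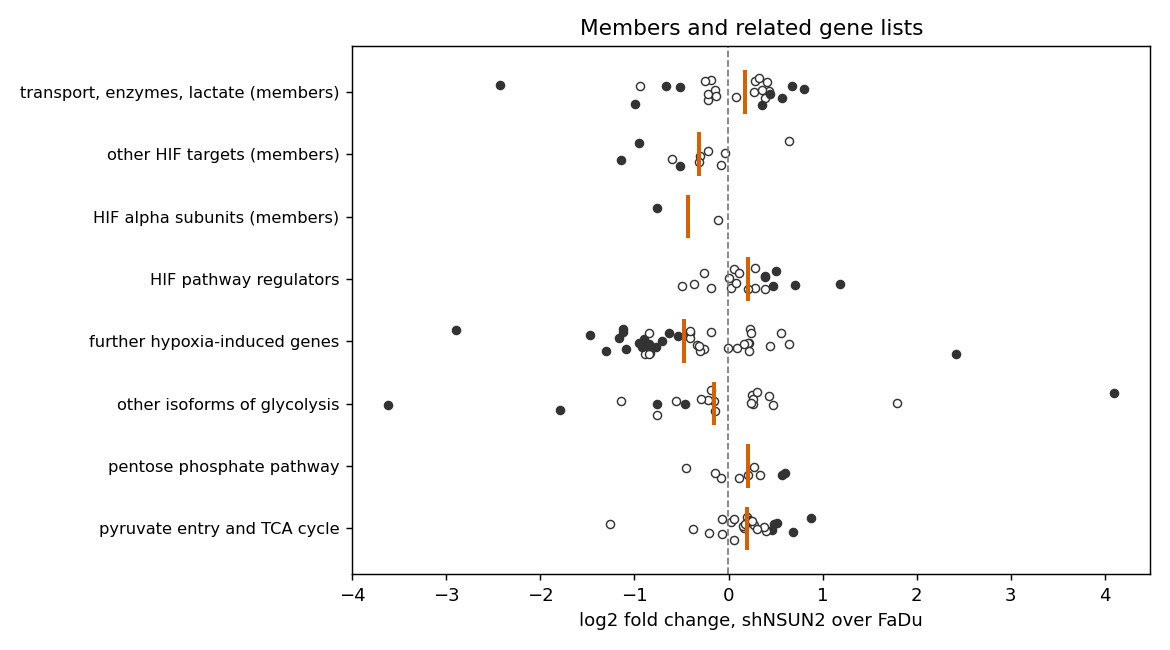
Log2 fold change of shNSUN2 over FaDu (horizontal axis) for each tested gene of the members' groups and of 5 related lists, with filled points for an adjusted p under 0.05 in edgeR's test, an orange bar at each median and a dashed line at the median of all genes tested (-0.01). The further hypoxia-induced genes (median -0.47, 17 filled points left of 0) and the other HIF targets (median -0.31) lie mostly left of the line, and the genes of transport, glycolysis and lactate spread to both sides (median 0.17).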

How the data were processed

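RNA was sequenced from 6 FaDu libraries, 3 of the shNSUN2 group and 3 of the FaDu group, and sample titles matched the columns of 1 table. The values are estimated counts per gene identifier, as deposited by the authors and used as they stand, whole numbers with no further normalization. Per the submitters' processing notes, HISAT2 2.0, StringTie 1.3.0 and Bowtie 0.12.2 were run, with no role given for each. The only build in those notes is mm8, a mouse assembly that holds no human identifier, and the build and annotation used for counting are otherwise not given in the sources used here. Values of 4 were 3.25 to 3.81 times as frequent as the mean of values 3 and 5, so 1 fragment is often worth several units, and no counting interval is given.

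Symbols came from a name table that held 58472 of the identifiers, and from GENCODE 29 where that table gave none. Positions, exonic lengths and GC content came from GENCODE 29 on GRCh38, which held 58552 of the identifiers. Whether counting used strand is not stated, so genes that overlap cannot be told apart. Of the 37 members, 24 have exons overlapping another gene and 16 have pseudogenes by name.

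The test was edgeR's quasi-likelihood test (version 4.0.16, R 4.3.3), two-sided and robust, on TMM-scaled counts, after filterByExpr with a minimum count of 10 and a minimum total of 15, with group alone in the design and Benjamini-Hochberg adjustment over 19081 genes, called under 0.05. The SE is the size of the log2 fold change divided by the square root of F. CPM are TMM-scaled and means are given with the SD over 3 libraries. Alternatives were median-ratio size factors, plain totals, no filter, DESeq2 1.42.0, leaving out each library, the replicate number as a block, and an offset for GC content and length (splines with 4 knots each). The procedure was tested on simulated data. Libraries of 1 group correlated at a Pearson's r of 0.964 to 0.974 in log2 CPM across genes, and libraries of different groups at 0.935 to 0.953.

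Members, lists and alternatives were chosen with earlier results of these data known. Values per library are given for called members, members whose call changed without shNSUN2 replicate 3 or with the GC and length correction, the first member of each role and the most abundant ones, and a few further members named beside them. From each related list, up to 3 higher and 3 lower called genes with the smallest adjusted p are named. A gene that this rule would name is not reported here and stays in the count of its list.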

Additional observations from a re-analysis of the deposited data

How the results depend on the processing

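Each of the 36 tested members kept its direction under median-ratio size factors, plain totals, no filter, DESeq2, the GC and length correction and the replicate block, and 4 changed sign when 1 library was left out. Over these leave-one-out fits the log2 fold change ran from -0.32 to 0.26 for PFKFB3, from -0.0404 to 0.20 for PFKFB4, from -0.44 to 0.17 for CA9 and from -0.13 to 0.0449 for ADM, none of them called. Leaving out 1 library gave 478 to 2090 genes higher and 861 to 2181 lower over all genes, 0 to 7 higher and 1 to 6 lower among transport, glycolysis and lactate, 0 to 4 lower among the other HIF targets, and 0 to 1 lower among the HIF alpha subunits. Such a fit has 2 libraries against 3 and less power. No label says that a replicate number marks a shared culture, batch or day, and same-numbered libraries deviated together with r of -0.0364, 0.0235 and 0.00744 across genes, and only replicate 2 of shNSUN2 correlated best with its own number. With the number as a block, 969 genes were higher and 1401 lower, and 1 gene of transport, glycolysis and lactate was called higher (2 with the GC and length correction as well). Of the 13 called members, 7 kept their call under the block, and the edgeR adjusted p was 0.0602 for PGAM1, 0.0939 for ENO1, 0.0582 for PKM, 0.106 for LDHB, 0.0613 for SLC16A3 and 0.0687 for P4HA2. EGLN3 then became the 1 other HIF target called higher, with and without that correction. With the GC and length correction alone, 2192 genes were higher and 2444 lower, PDK1 and LDHB lost their call, and PFKM, PFKP and P4HA1 gained one. DESeq2 called 3 members more, PFKM, SLC16A1 and P4HA1. The cause of these changes was not tested. Members under a few CPM, such as ANKRD37, rest on few fragments.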
